A study of Esox lucius with 13 samples.

Results

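The transcripts described here are the 300 whose expression varied least over 13 tissues of a northern pike, *Esox lucius*. They were chosen from 38696 transcripts in 2 steps. First, 3517 transcripts with at least 100 mapped fragments in every library were kept. These were then ordered by the coefficient of variation (CV) of their FPKM, the SD over the 13 tissues with n - 1 in its denominator divided by the mean, and the 300 lowest were taken. FPKM is the number of fragments per kilobase of transcript, scaled to the total of mapped fragments in the library. Every library came from the same wild type juvenile male, with 1 library for each tissue. These were testis, brain, eye, nose, gill, stomach, gut (hind gut in the methods), liver, spleen, kidney, head kidney, muscle and heart. No tissue was treated. Since each tissue has a single library, differences between tissues were not tested, and all values are those of 1 animal.

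Genes that every cell needs are often called housekeeping genes. They encode ribosomal proteins, proteasome subunits, splicing and transcription factors, respiratory enzymes and parts of the vesicle traffic system. Some of them serve as reference genes, to which the measurements of other genes are scaled. Such a use assumes that the reference gene has a similar level in all samples, and that level is itself relative to the RNA that was sequenced. The values that chose the 300 members are given below as a description and support nothing beyond it. In tissue samples, fewer cells of a type and less RNA per cell cannot be told apart.

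The library totals ranged from 17240414 to 22300517 fragments, with a median of 19038265. The libraries differed in how many fragments went to a few abundant transcripts. The 100 most abundant transcripts of a library took 14.96% of the fragments in testis, 26.6% in spleen and 32.4% in brain, but 71.6% in muscle, 74.3% in liver and 74.7% in stomach. FPKM is relative to the library total, so that these shares bear on every level given here. A set of 7 transcripts was paired with names chosen for a check of the tissues. Protein C2orf71 was highest in eye, Forkhead box protein I1 in gill and a urate transporter of the solute carrier family 2 in kidney. Hemopexin was highest in liver and acidic mammalian chitinase in stomach, and each of these was highest where that marker is known. Cyclin-B2 and securin, which serve dividing cells of any tissue, were highest in testis, with 1651 and 933 FPKM. In kidney they had 78.5 and 72.0 FPKM. No such transcript was at hand for the other tissues. The library labelled stomach carries a second name. In the study's expression table of predicted gene models, the column with its fragment numbers is headed pyloric caecum, a pouch of the gut behind the stomach. It is called stomach here, as in its label, and which of the names holds for the tissue cannot be told apart from the labels. The study lists stomach among its tissues and reports chymosin, gastricsin and pepsin among the most specialized genes there.

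The members spanned a wide range of levels. Their mean FPKM over the 13 tissues ranged from 3.96 to 4189, with a median of 24.5, and 1 in 4 members had a mean above 56.4. The 3217 other transcripts past the minimum had a median of 16.8 FPKM. Members were shorter, with a median of 2179 bases against 3524 for the others. In each library the members took from 3.61% of the fragments, in brain, to 9.77%, in head kidney. Abundant transcripts were more often members in deposited FPKM. Of the 52 transcripts with a mean of at least 1000 FPKM (1.48% of the 3517), 17 were members, or 32.7%, against 5.79% of the 847 with a mean below 10 FPKM. Neither difference held for the 300 most even transcripts with median-of-ratios scaling, which is described with the other scalings. Their median length was 4759 bases and their median level 11.6 FPKM, against 3404 bases and 17.1 FPKM for all 3517, and none of the 17 abundant members was among them.

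The CV of the members ranged from 0.19 to 0.43, with a median of 0.39, and the median over all 3517 transcripts was 0.64. The limit fell in a dense part of the order. The 298th transcript had a CV of 0.4315 and the 300th of 0.432, and the first 2 left out had 0.432 and 0.4321. Membership near the limit therefore separates nearly equal values.

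**Figure D1:**
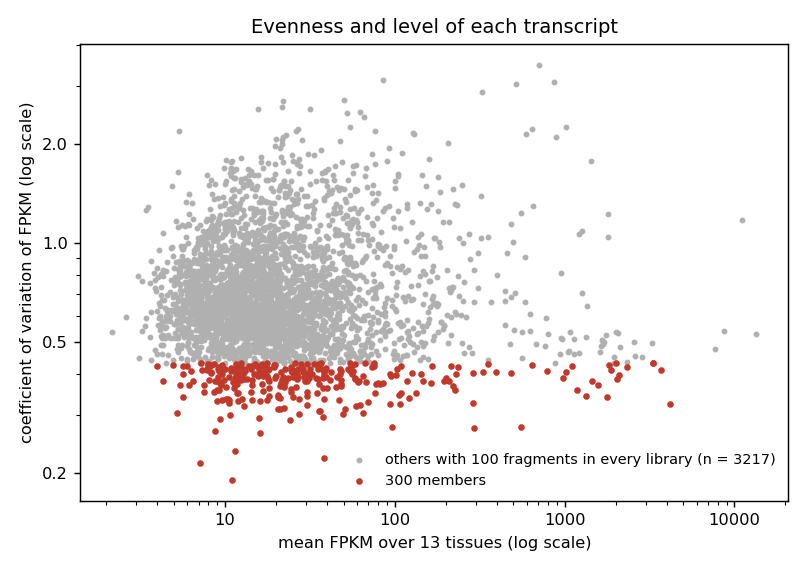
Each point is 1 transcript with at least 100 fragments in every library, with its mean FPKM over the 13 tissues on the horizontal axis and its CV on the vertical axis, both on log scales. The 300 members (red) lie at CVs from 0.19 to 0.43 over levels from 3.96 to 4189 FPKM, and the 3217 others (grey) reach 3.47.

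Even these transcripts varied several-fold between tissues. The ratio of the highest to the lowest tissue ranged from 2.06 to 10.4 among the members, with a median of 4.30, against a median of 12.5 for the others. No member stayed within 2-fold, and neither did any of the 3517 transcripts (0.0%). Of the members, 25 stayed within 3-fold, which are all such transcripts past the minimum (0.711%), and 218 within 5-fold (9.72% of the 3517). The rule used the same values, so that nothing is read from these shares. Of the 3900 values of the members, 46.3% lay within 25% of the mean of their own transcript, against 29.4% for the others. A member had values below 0.5 of its mean in no tissue in 51 cases, in 1 tissue in 139 and in more in 110. These numbers of tissues were not counted for all transcripts, of which 71.4% were below 0.5 of the mean in liver alone. Only 11 members had no tissue below 0.5 or above 1.5 times their mean (0.313% of the 3517, all of them members). The value farthest below its mean was 0.15 of it, an unnamed transcript with 1.42 FPKM in testis and a mean of 9.52. The value farthest above was 2.17 times the mean, an unnamed transcript with 26.6 FPKM in muscle and a mean of 12.3.

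Counting error was a small part of this spread. At the fragments observed, Poisson counting of an even transcript would give a CV that was exceeded 10.96 times by the observed one at the median of the members. The ratio of the observed CV to that of counting ranged from 2.58 to 111. It was over 3 in 299 of the 300 members and in 3516 of the 3517 transcripts (99.97%). The exception was the transcript with the lowest CV of all. All intervals given here are for counting error alone, as no molecular identifiers were used, and the spread between animals is not known from 1 fish.

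In deposited FPKM most of the members' lowest values fell in a few tissues. Liver had the lowest FPKM of 94 members, stomach of 67, brain of 44, muscle of 39, eye of 28 and testis of 15. These are 31.3% of the members for liver, 22.3% for stomach, 14.7% for brain and 9.33% for eye. Over all 3517 transcripts the shares were 38.9% for liver, 18.5% for stomach, 3.9% for brain, 23.4% for muscle, 5.37% for eye and 6.17% for testis. Liver is the main site of plasma protein synthesis, and stomach and muscle each make a small set of proteins in bulk. Whether this bears on the counts was not tested. Heart was the lowest tissue of 9 members (1.85% of all transcripts), gut of 3 (0.654%) and spleen of 1 (0.313%). Gill, head kidney, kidney and nose were the lowest tissue of no member, and of 0.0853%, 0.512%, 0.0569% and 0.284% of all transcripts. Liver, stomach and muscle together were the lowest of 66.7% of the members and of 80.8% of all.

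The highest values were spread over more tissues. Testis had the highest FPKM of 49 members (38.3% of all transcripts), kidney of 41 (5.26%), head kidney of 38 (7.79%), spleen of 35 (13.4%), nose of 27 (7.88%) and gill of 26 (5.12%). Brain was the highest of 20 (7.31%), heart of 18 (4.52%), eye of 14 (2.36%), muscle of 12 (2.13%), stomach of 10 (1.31%), gut of 8 (2.93%) and liver of 2 (1.71%). Testis thus held 16.3% of the highest values of the members, against 38.3% of those of all transcripts. The rule used these values, and the shares are a description. Testis was the highest tissue of 53 members with TPM. It was that of 0 members with median-of-ratios scaling, upper quartile scaling or totals without the 100 most abundant transcripts. The most frequent pair was lowest in stomach and highest in kidney, in 22 members, followed by lowest in liver and highest in testis, in 19. Such pairs were not counted over all transcripts. No member was more than 3 SD above its mean in any tissue, which 13.5% of all transcripts were, and the highest score of a member was 2.76.

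**Figure D2:**
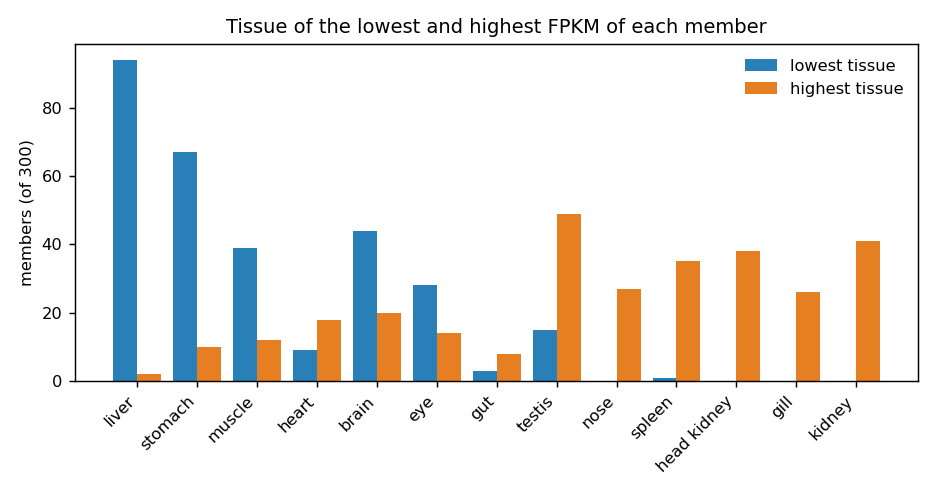
Bars give the number of the 300 members whose lowest FPKM (blue) or highest FPKM (orange) was in each tissue, with tissues ordered by the members' median ratio to their mean. Liver holds 94 lowest and 2 highest values, and testis 15 lowest and 49 highest. With median-of-ratios scaling liver turns round, with 1 lowest and 129 highest, and testis holds 43 lowest and 0 highest. For that scaling the shares of all transcripts were not counted.

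Set against each transcript's own mean, the members had a median of 0.59 in liver, 0.64 in stomach, 0.78 in both muscle and heart, 0.84 in brain, 0.85 in eye and 0.94 in gut. The medians above the mean were 1.10 in testis, 1.16 in nose, 1.17 in spleen, 1.24 in head kidney, 1.25 in gill and 1.27 in kidney. Gut was the tissue closest to the mean, with 198 of the members within 25% of it (35.8% of the 3517), and liver the farthest, with 84 (10.2%). In liver 111 members were below 0.5 of their mean (71.4% of the 3517) and in stomach 87 (63.7%). In kidney, head kidney, gill and nose no member was, against 3.33%, 6.6%, 4.09% and 5.06% of all. These directions hold for deposited FPKM. With median-of-ratios scaling the medians of the members were 0.69 in testis, 0.67 in nose, 0.54 in spleen, 0.77 in head kidney, 0.83 in gill and 0.75 in kidney, all below the mean, and 1.203 in stomach, 2.09 in liver and 2.09 in muscle, above it. Heart, brain, eye and gut stayed below the mean, at 0.75, 0.50, 0.77 and 0.91. In deposited FPKM the other transcripts lay farther out than the members in liver, stomach and muscle, with medians of 0.29, 0.39 and 0.33. The same held in heart, eye, gut, spleen and testis, with 0.66, 0.72, 0.72, 1.29 and 1.55. In gill, kidney, head kidney, nose and brain the others lay nearer the mean, with 1.07, 1.199, 1.19, 1.12 and 0.849. The libraries in which the members were lowest, liver and stomach, are among those with the largest shares of abundant transcripts, and spleen and testis, where members were above their means, have the smallest. Brain, with a small share of abundant transcripts, was below the mean of the members as well. Their part in the result was not tested.

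**Figure D3:**
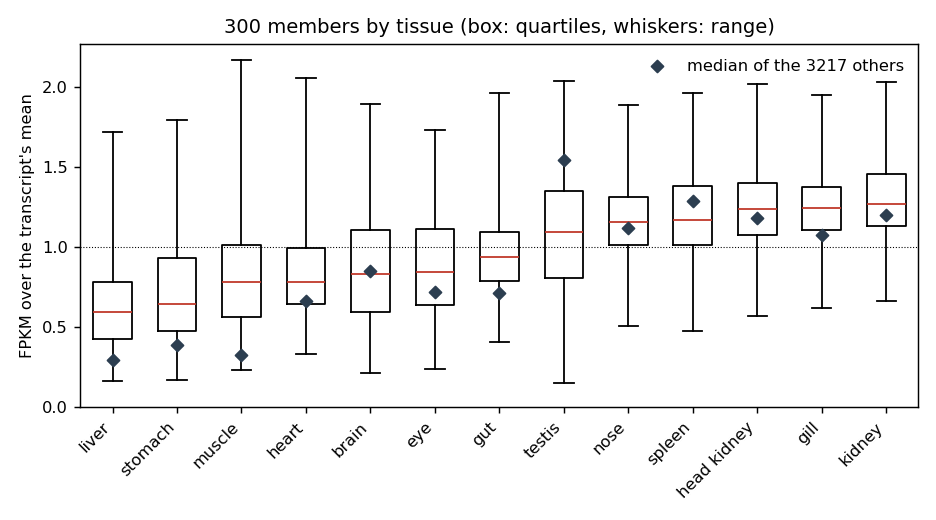
For each tissue the box shows the quartiles and median of the 300 members' FPKM divided by the transcript's mean over 13 tissues, and the whiskers show the full range. Diamonds give the median of the 3217 others, which was 0.29 in liver and 1.55 in testis, against 0.59 and 1.10 for the members. With median-of-ratios scaling the members' median is 2.09 in liver and 0.69 in testis.

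The pattern differed with the level of the members. The limits of these classes were set with the values in view. The 49 members with a mean below 10 FPKM had a median ratio to their mean of 1.01 in brain, 0.53 in liver, 0.63 in stomach and 1.19 in testis. The 201 members between 10 and 100 FPKM were similar, with 0.88 in brain, 0.57 in liver, 0.57 in stomach and 1.18 in testis. In the 33 members between 100 and 1000 FPKM, brain was at 0.53 and stomach was at 1.09. The 17 members of at least 1000 FPKM had 0.31 in brain, 0.49 in testis, 0.89 in liver, 1.26 in stomach and 1.57 in head kidney. Of these 17, 13 were lowest in brain (3.9% of the 3517) and 4 in testis (6.17%), and 9 were highest in head kidney (7.79%). Their median length was 931 bases, against 3248 for the members below 10 FPKM. At a low FPKM only a long transcript reaches 100 fragments, so that this contrast follows in part from the minimum. The lengths of all transcripts in these classes were not determined. The low values of this class in brain and testis were present with the 4 other scalings for which this class was examined. Of the 17, 12 were lowest in brain and 4 in testis with TPM, 14 and 3 with median-of-ratios scaling, 9 and 8 with upper quartile scaling, and 11 and 6 with totals without the 100 most abundant transcripts. The median ratio in brain ranged from 0.16 to 0.37 over these scalings and deposited FPKM, and that in testis from 0.22 to 0.53. Among all 52 transcripts of at least 1000 FPKM these counts and ratios were not determined. The low values in brain and testis therefore cannot be called particular to the members.

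Names were available for only 6 members. The names come from the annotations of the study's expression tables, of which only the first 1999 rows each were at hand, and rows were matched to transcripts by their fragments in all 13 libraries. None of the rows at hand of the Trinity table had 100 fragments in every library, so that all names here come from models of the MAKER2 gene prediction. For 40S ribosomal protein S14 and 26S proteasome non-ATPase regulatory subunit 12 every number matched within 2% or 5 fragments. The other 4 names rest on looser rules, which were taken for names after the data were seen. The rule within 5% had been planned as an alternative pairing, and the proportional rule was added. The fragments of 60S ribosomal protein L3 matched within 5%. Those of 60S acidic ribosomal protein P0, Ubiquitin-like protein 7 and Interferon regulatory factor 2-binding protein 1 were proportional to a single transcript. The CV of that proportion was 0.067, 0.026 and 0.034, against 0.23, 0.13 and 0.15 for the next transcript. The model of Interferon regulatory factor 2-binding protein 1 was 4772 bases long and its transcript 6073 bases. All 39 pairs of the main rule that are past the minimum were also found by the proportional rule, with the same names. Fragments that match within 2% or 5 fragments are nearly proportional, so that this was largely fixed in advance. It says nothing about the 4 names that rest on looser rules. The 294 members without a name cannot be described by function here.

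Subunit 12 of the 26S proteasome is part of the lid of the regulatory particle, through which ubiquitin-tagged proteins enter the proteasome for degradation. It ranked 150th of the 3517 transcripts, with a mean of 30.4 FPKM and a CV of 0.39. It had 57.7 FPKM in kidney, 41.1 in head kidney, 39.2 in gill, 37.2 in spleen, 34.2 in nose, 33.2 in testis, 26.7 in muscle, 25.4 in gut, 24.4 in liver, 23.2 in brain, 22.5 in eye, 19.0 in heart and 11.2 in stomach. Kidney and stomach stood apart at the ends, and the other 11 tissues lay between 19.0 and 41.1 FPKM. The ratio of kidney to stomach was 5.13 (95% interval 4.64 to 5.69). With deposited FPKM it was highest in kidney, but with median-of-ratios and upper quartile scaling, and with totals that leave out the 100 most abundant transcripts, it was highest in liver. Its lowest tissue was then no longer stomach but testis with upper quartile scaling and brain with the others. Ubiquitin-like protein 7, which carries a ubiquitin-like domain, had 95.9 FPKM in testis, 62.1 in head kidney and 56.7 in spleen. It had 24.9 in stomach and 21.0 in liver, and the other 8 tissues lay between 29.9 FPKM, in gut, and 52.4, in gill. Testis stood above the next tissue beyond counting error, at 92.3 to 99.5 FPKM against 59.2 to 65.1 in head kidney. The ratio of testis to liver was 4.57 (4.21 to 4.97). The highest tissue was testis with FPKM and TPM. It was muscle with median-of-ratios and upper quartile scaling and with totals that leave out the 100 most abundant transcripts. The lowest tissue, liver in FPKM, was stomach with TPM, spleen with median-of-ratios scaling, and gut with upper quartile scaling and with those totals.

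Interferon regulatory factor 2-binding protein 1, a nuclear co-repressor of transcription, was the least abundant of the named members, with a mean of 7.89 FPKM. It had 13.3 FPKM in spleen, 12.1 in head kidney, 10.7 in testis, 10.3 in gill, 9.26 in nose, 8.94 in kidney, 7.58 in gut, 7.003 in eye, 6.50 in heart, 5.37 in stomach, 5.11 in brain, 3.63 in muscle and 2.73 in liver. Its highest values were in spleen and head kidney, and its lowest in liver and muscle. Spleen was 4.86 times liver (4.33 to 5.46). It is the named member that became more even with median-of-ratios scaling, where its CV was 0.29 against 0.41 in FPKM. Its lowest tissue was then brain and its highest stomach.

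The ribosomal proteins were among the most abundant members. The small subunit protein S14 had a mean of 3331 FPKM and a CV of 0.43, and with rank 295 it was one of the last members. It had 5436 FPKM in head kidney, 5082 in stomach, 4844 in gill, 4491 in nose, 3736 in eye, 3672 in gut, 3517 in spleen, 2995 in kidney, 2772 in muscle, 2704 in liver, 2027 in heart, 1031 in brain and 999 in testis. Brain and testis were the lowest tissues and heart the next. The ratio of head kidney to testis was 5.44 (5.34 to 5.55). Protein L3, which lies near the peptidyl transferase centre of the large subunit, had a median of 1968 FPKM, with 3386 in stomach, 2856 in head kidney, 1117 in testis, 893 in muscle and 682 in brain. Protein P0, the base of the stalk that binds translation factors, had a median of 2539 FPKM, with 3452 in stomach, 3335 in liver, 3263 in muscle, 827 in testis and 520 in brain. Muscle was low for L3 and high for P0, so that the 3 ribosomal proteins did not vary together in every tissue. In brain S14 was at 0.31 of its mean, L3 at 0.36 and P0 at 0.22. The lowest tissue was brain or testis for each of the 3 with FPKM, TPM, median-of-ratios and upper quartile scaling, and totals without the 100 most abundant transcripts. The highest was stomach, head kidney or liver, depending on which of these was used.

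**Figure D4:**
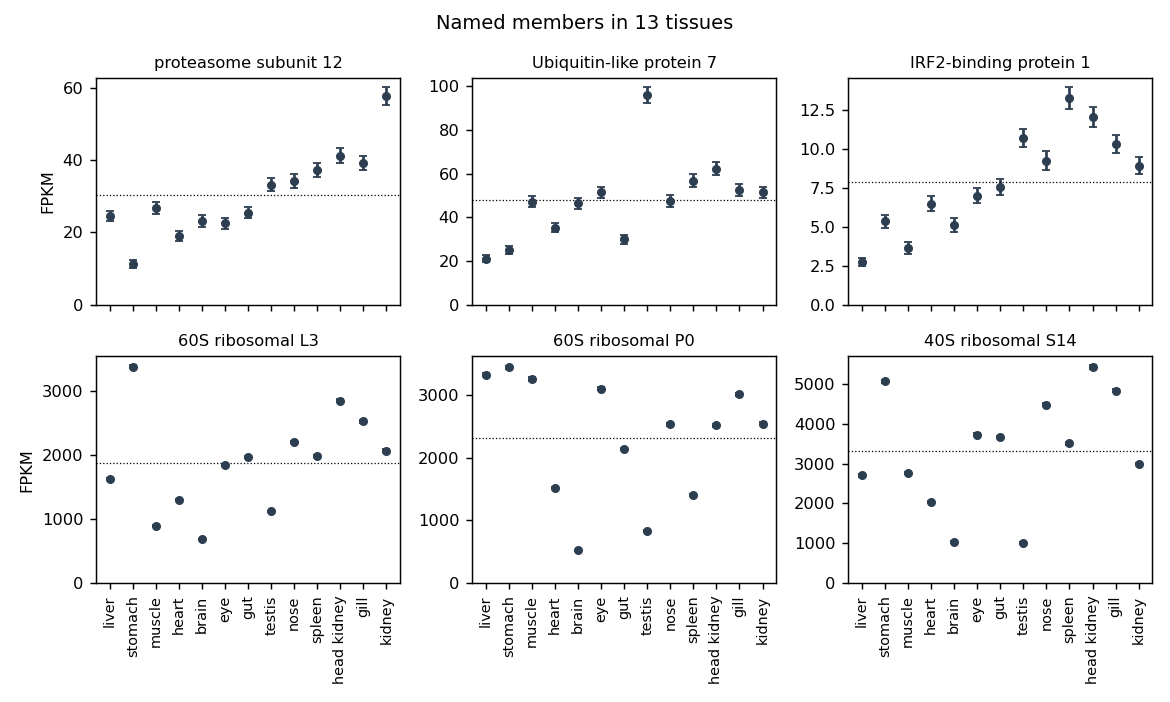
FPKM of the 6 named members in each tissue, with exact Poisson 95% intervals (counting error only, smaller than the points for the ribosomal proteins) and a dotted line at the mean of the 13 tissues. The proteasome subunit is at 11.2 FPKM in stomach and 57.7 in kidney, and S14 is at 999 in testis and 5436 in head kidney. The highest tissue of each of the 6 changes with the scaling of the libraries.

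The most even member of all has no name at hand. This transcript of 905 bases had 15.8 FPKM in testis, 13.5 in head kidney, 12.5 in spleen, 11.5 in nose, 11.5 in stomach, 10.9 in gut, 10.7 in kidney, 10.5 in gill, 10.2 in brain, 10.1 in muscle, 10.04 in heart, 9.94 in eye and 6.79 in liver. Its values were nearly flat from nose to eye, with testis above and liver below. The ratio of testis to liver was 2.33 (1.89 to 2.88). The next in order, of 2149 bases, had a mean of 7.16 FPKM and ranged from 4.28 in eye to 8.80 in brain, a ratio of 2.06 (1.71 to 2.48), the smallest of all 3517 transcripts. Both were less even with median-of-ratios scaling, with CVs of 0.64 and 0.71 and the highest value in muscle. The most abundant member, of 629 bases, had a mean of 4189 FPKM, with 6117 in head kidney, 5728 in spleen, 2276 in brain and 1823 in testis. The next most abundant, of 661 bases, had a mean of 3694 FPKM, with 7458 in head kidney, 4706 in testis and 1591 in brain. In deposited FPKM it was thus above its mean in testis, unlike the most abundant member.

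The lists of housekeeping functions could be followed only through the 71 named transcripts past the minimum, of which 6 were members, as 300 of the 3517 were. Of the 71 names, 39 come from the main rule, and the others rest on the looser rules. The 71 had a median CV of 0.67. Of 6 cytosolic ribosomal proteins 3 were members, and the CVs of the 6 ranged from 0.41 to 0.60. The 3 that were not are S27, L39 and L22, with CVs of 0.53, 0.54 and 0.60. Protein S27 had 1129 FPKM in head kidney and 92.5 in testis, L39 had 1198 in stomach and 78.9 in brain, and L22 had 414 in head kidney and 24.2 in eye. Of 5 transcripts of the proteasome and ubiquitin list 2 were members, with a median CV of 0.72. Proteasome subunit beta type-7, a protease subunit of the core particle, was the least even of them, with a CV of 0.97 and its highest value in testis. Its name rests on the looser rules. The 2 subunits of this complex had CVs of 0.39 and 0.97 in FPKM, but of 0.73 and 0.70 with median-of-ratios scaling, so that their order was turned.

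No member was found among 5 transcripts for RNA processing and splicing, 4 for chromatin and transcription, 4 for membrane traffic, 2 each for nuclear transport, chaperones and mitochondrial energy metabolism, and 1 each for translation factors, mitochondrial ribosomal proteins and the cytoskeleton. Their median CVs were, in the same order, 0.66, 1.12, 0.82, 1.57, 0.58, 0.64, 0.50, 0.72 and 0.64. The 1 transcript counted for translation factors is Eukaryotic translation initiation factor 4E-binding protein 2, taken up by the words of its name. It binds such a factor and is not one itself, so that its CV does not describe translation factors. Among all named transcripts outside the members, the lowest CVs include 0.44 for Proliferation-associated protein 2G4 and 0.46 for the HIV Tat-specific factor 1 homolog. Both are outside the lists and are named here after their values were seen. The highest CV of the named transcripts was 2.40 for Importin subunit alpha-2, of the nuclear transport list. It carries proteins into the nucleus and was highest in testis. Its name, that of the other nuclear transport transcript and that of Proliferation-associated protein 2G4 rest on the looser rules. These lists hold few transcripts, and their counts are no estimate for whole classes.

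The list of PCR reference genes searched for here paired with 2 transcripts past the minimum, and both were outside the 300. None of the 6 paired cytosolic ribosomal proteins was on this list, and 3 of those were members, P0 among them. The list thus does not cover every gene used as a reference. Hypoxanthine-guanine phosphoribosyltransferase, an enzyme of purine salvage, had a CV of 0.76 and ranked 2359th of the 3517, with 118 FPKM in spleen and 8.78 in eye. With median-of-ratios scaling its CV was 1.61 and its rank 3403. Subunit RPB3 of RNA polymerase II had a CV of 1.05 and ranked 3060th, with 91.3 FPKM in testis and 4.66 in stomach. It is also counted among chromatin and transcription, its name rests on the looser rules, and its CV was 0.78 and its rank 2361 with that scaling. Cytoplasmic actin, elongation factor 1-alpha, tubulin alpha and the other reference genes searched for were not paired with a transcript and are not described here.

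The membership depended on how the libraries were scaled. Median-of-ratios scaling divides each library by the median of its ratios to the geometric mean over the 14814 transcripts with fragments in all 13 libraries. Relative to the totals, its factors were 0.257 in liver, 0.336 in muscle and 0.493 in stomach, against 1.96 in spleen, 1.56 in nose, 1.55 in kidney and 1.51 in brain. With it the 300 most even transcripts shared 11 with the members, 3.67% of either list. Each list is 300 of the 3517 transcripts, so that lists with no relation would share some as well. The 11 are therefore no evidence of a stable core. The median CV of the members was 0.66, against 0.39 in FPKM and near the median of all 3517 transcripts with this scaling, 0.62, and their median rank was 1894.5 of 3517. The members then had medians of 2.09 times their mean in both liver and muscle. Of the 300 members, 138 were highest in muscle, 129 in liver, 28 in stomach and 5 elsewhere, and 1 was lowest in liver. The shares of all 3517 transcripts with this scaling were not counted. The members were chosen as even in FPKM, so that division by the low factors of liver and muscle raises them there in part by construction. The direction in liver was also turned by upper quartile scaling, with a median of 1.37, and by totals without the 100 most abundant transcripts, with 1.15, but not by TPM, with 0.55. The statement that the members were low in liver therefore holds for the deposited FPKM and TPM only.

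The 300 most even transcripts with median-of-ratios scaling had CVs from 0.16 to 0.33. Of them, 25 stayed within 2-fold on that scale, and their median CV in deposited FPKM was 0.54. How many of all 3517 stayed within 2-fold on that scale was not counted. Dividing each library by the members' own median, which removes only the shift that the members share, lowered the median CV of the members from 0.39 to 0.33, and the CV of 212 of the 300. After this, 9 members stayed within 2-fold, which are all such transcripts of the 3517 (0.256%). The division uses the same values that chose the members, so that a lower CV follows in part from its construction.

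**Figure D5:**
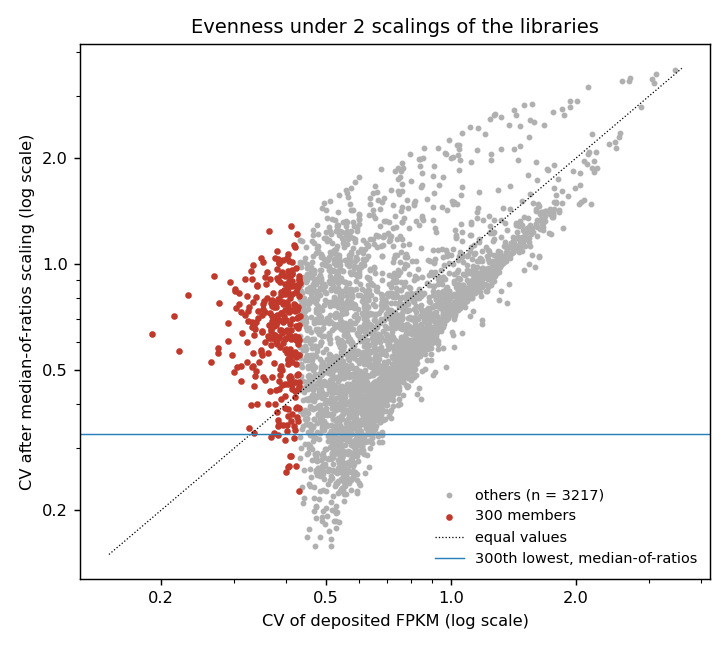
Each point is 1 of the 3517 transcripts, with its CV in deposited FPKM on the horizontal axis and after median-of-ratios scaling on the vertical axis, both on log scales. Of the 300 members (red) only 11 lie under the blue line at the 300th lowest CV of that scaling, and most lie above the dotted line of equal values.

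The 11 transcripts in both lists are Interferon regulatory factor 2-binding protein 1 and 10 without a name. Their CVs were 0.37 to 0.43 in FPKM and 0.23 to 0.33 with median-of-ratios scaling. Their means lay between 7.89 and 48.6 FPKM, so that none of the abundant members was among them. In FPKM 8 of the 11 were lowest in liver (38.9% of the 3517) and 3 in muscle (23.4%). Their highest tissue was spleen in 3 (13.4%), brain (7.31%), nose (7.88%) and testis (38.3%) in 2 each, and eye (2.36%) and kidney (5.26%) in 1 each. The most even of the 11 with median-of-ratios scaling, of 3255 bases, ranked 289th in FPKM and 41st with that scaling. It ranged from 8.54 FPKM in liver to 40.4 in brain.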

How the data were processed

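RNA of 13 tissues of 1 fish was sequenced as paired-end reads on an Illumina HiSeq2000. The authors trimmed reads with Trimmomatic, assembled all tissues with Trinity, kept a single transcript per locus and deposited raw fragment counts and FPKM per transcript and library. For the mapping program and tool versions, the sources used here give none. FPKM recomputed from fragments, length and total differed by at most 0.105%, and lengths were calculated from these. The members, gene lists and rules were chosen with earlier results of these data known. Named were every member paired with a name, all paired genes of the list of PCR reference genes, and at most 2 unnamed members each with the lowest CV and the highest mean. Pairing required all 13 fragment numbers of a named row with at least 1000 fragments to lie within 2% or 5 fragments of a single transcript, with lengths within 20%. The added proportional rule required a CV of the ratio under 0.1, the next transcript at least 3 times higher, and mean ratio and length ratio between 0.5 and 2, for models with at least 50 fragments in every library. It gave 71 pairs. Intervals are exact Poisson 95% intervals, or exact binomial ones for ratios. No sequences are shown, since the transcripts' sequences were not used here, and transcripts of near-identical copies may share reads. Alternatives were TPM, 3 other scalings, other measures of evenness, other minima, thinning, averaging the kidneys and leaving out tissues. The work was done with pandas 2.3.3, scipy 1.17.1 and numpy 2.4.6 under Python 3.11.15, and plots with matplotlib 3.10.9.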

Additional observations from a re-analysis of the deposited data

How the results depend on the processing

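The list of 300 was remade under 17 alternatives and without each tissue in turn, and each time the transcripts shared with the members, those within 2-fold, those lowest in liver and those highest in testis were counted. With TPM 258 members stayed and 58 of the list were lowest in liver. With median-of-ratios scaling 11 stayed, 25 were within 2-fold and 14 were lowest in liver. With upper quartile scaling 54 stayed, 18 were within 2-fold and 38 were lowest in liver. With totals without the 100 most abundant transcripts 87 stayed and 15 were within 2-fold. With the SD of log2 FPKM 82 were highest in testis, and with the median absolute deviation over the median 106 stayed and 102 were highest in testis. Ranking by highest over lowest tissue kept 199, a minimum of 1000 fragments 69 and a minimum of 10 FPKM 145. The next 3 alternatives were added after the data were examined. Without liver, muscle and stomach together 114 stayed and 27 were within 2-fold. With size factors over the transcripts past the minimum 33 stayed, 40 were within 2-fold and 42 were lowest in liver, and with median-of-ratios scaling and a minimum of 10 fragments the values were 7, 41 and 22. Leaving out 1 tissue kept from 169 members, without testis, to 279, without head kidney. From 0 to 3 were then within 2-fold, the most without liver, 87 to 130 were lowest in liver, 45 to 64 highest in testis, and 299 had a CV over 3 times that of counting. The main pairing and the strict one within 0.1% or 1 fragment named 2 members, that within 5% named 3 and the proportional rule, also added then, 6. Lists of 300 from the same transcripts share some without any relation, and that number was not determined. For these settings the shares of all transcripts were not counted, so that the counts only describe each list. The cause of these changes was not tested. No paired analysis was possible because each tissue has 1 library. The smallest count of a member in any library was 102 fragments, which limits the precision of the least abundant members.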

Other observations

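The minimum of 100 fragments in every library was decided by a few libraries. Of 1455 transcripts that reached it in 12 of the 13 libraries, 504 missed it in liver, 478 in muscle, 224 in testis, 168 in stomach, 46 in eye and 17 in brain, 5 each in head kidney and heart, 4 each in gut and nose, and none in gill, kidney or spleen. Of these 1455, 29 had a CV below that of the last member. Among the 14814 transcripts with fragments in all 13 libraries, 371 had such a CV.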
